A study of Mus musculus with 6 samples.

Results

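Heparan sulfate is a long, sulfated sugar chain that cells attach to core proteins and carry on their surface and in the extracellular matrix, where it binds growth factors and morphogens and presents them to their receptors. In the Golgi, EXT proteins polymerise the chain from alternating glucuronic acid and N-acetylglucosamine on a linkage sugar, and N-deacetylase/N-sulfotransferases, an epimerase and O-sulfotransferases then modify it. In the ovary, heparan sulfate proteoglycans such as perlecan are part of the basement membranes that surround follicles. The genes described here are 10 enzymes of this route: the polymerases Ext1 and Ext2, the EXT-like glycosyltransferases Extl1, Extl2 and Extl3, the N-deacetylase/N-sulfotransferases Ndst1 and Ndst2, the epimerase Glce, and the O-sulfotransferases Hs2st1 and Hs6st1. They were chosen by name, as Extl1 and enzymes of the same pathway, out of 25164 gene symbols. All 10 were in the table, and all 10 passed the filter of a mean of at least 1 FPKM that 12442 genes passed. FPKM is a level corrected for transcript length and for sequencing depth. Extl1 drew attention to the pathway because its level differed between the genotypes in these libraries, so that comparison is given for the 10 genes as a description, and no test of it is read as support.

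The study sequenced RNA of ovary tissue from C57BL/6 mice, with day 1 in the sample titles. The 3 libraries called cKO here carry hnRNPL flox/flox with Stra8-cre, a transgene that drives Cre recombinase in germ cells, and the other 3, the controls, are labelled wild type. The control label names neither the floxed alleles nor the Cre. By their design the somatic cells of a cKO ovary keep Hnrnpl, an RNA-binding regulator of splicing, and the labels' protocols mention a hormone challenge without saying what it was. Whether libraries of one genotype are separate animals is not stated, so p-values measure only the spread between these libraries, which may be technical.

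Hnrnpl itself stood at 100.5, 81.5 and 85.2 FPKM in cKO replicates 1 to 3 and at 104.1, 93.8 and 101.9 FPKM in control replicates 1 to 3, a difference that did not pass the test (limma, log2 fold change -0.17, SE 0.13, adjusted p = 0.571), with cKO replicate 1 among the controls. The ovary also holds somatic cells, which by design keep Hnrnpl, and the value does not separate the floxed exons. The part of either in this level was not tested. Estimated depth, the smallest that fitted nearly best, was 7250000 fragments in cKO replicate 1 and 10750000 to 14450000 fragments in the other 5 libraries. Summed FPKM was 335667 in cKO replicate 1 and 223845 to 246121 elsewhere. Values were therefore also divided by a median-of-ratios factor (the median of a library's ratios to the gene-wise geometric mean), which was 1.18 for that library and 0.949 to 0.989 for the rest. Scaled, Hnrnpl stood at 85.5, 84.2 and 87.5 in cKO and at 105.3, 95.4 and 107.4 in the controls, so that every cKO library was below every control, and the difference again did not pass the test (limma, log2 fold change -0.26, adjusted p = 0.150). With this scaling the median change over the tested genes moved from 0.08 to 0.00 (log2). Markers fixed by list showed the tissue to hold ovarian cells: all 12 germ cell and oocyte markers and all 12 pregranulosa markers were above the filter. In bulk tissue, fewer cells of a type and less RNA per cell cannot be told apart.

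To show the start of Extl1 beside 2 enzymes with higher levels, RefSeq promoter windows (GRCm38.p6, 250 bases before to 50 after the start site, 5′ to 3′ on the gene's strand) are printed here, with CG dinucleotides in capitals. The windows lie at chr4:134372498-134372797 on the minus strand for Extl1, chr2:93822519-93822818 on the minus strand for Ext2 and chr1:36068150-36068449 on the plus strand for Hs6st1.
Extl1: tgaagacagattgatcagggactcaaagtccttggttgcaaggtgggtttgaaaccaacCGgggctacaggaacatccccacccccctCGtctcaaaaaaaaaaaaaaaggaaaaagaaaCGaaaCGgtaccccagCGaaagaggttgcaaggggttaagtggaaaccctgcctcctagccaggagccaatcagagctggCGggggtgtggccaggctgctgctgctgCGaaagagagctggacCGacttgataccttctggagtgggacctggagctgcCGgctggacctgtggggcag
Ext2: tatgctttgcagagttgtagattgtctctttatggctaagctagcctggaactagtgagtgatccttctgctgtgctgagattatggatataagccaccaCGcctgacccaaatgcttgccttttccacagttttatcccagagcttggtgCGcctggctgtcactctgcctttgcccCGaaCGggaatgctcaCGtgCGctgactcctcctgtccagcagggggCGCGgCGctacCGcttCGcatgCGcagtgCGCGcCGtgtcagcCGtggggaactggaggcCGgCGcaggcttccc
Hs6st1: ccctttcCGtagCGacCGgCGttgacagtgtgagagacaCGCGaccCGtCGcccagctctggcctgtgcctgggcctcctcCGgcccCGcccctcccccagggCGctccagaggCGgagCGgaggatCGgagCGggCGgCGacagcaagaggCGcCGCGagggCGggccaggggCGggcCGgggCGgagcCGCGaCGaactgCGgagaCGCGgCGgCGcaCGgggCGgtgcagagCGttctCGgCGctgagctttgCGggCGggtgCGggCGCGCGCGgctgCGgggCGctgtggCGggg

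The Extl1 window held 9 CG dinucleotides, against 18 in that of Ext2 and 47 in that of Hs6st1. Of all 32851 promoter windows in the table, 56.5% held no more than Extl1 and 98.8% no more than Hs6st1. Promoter windows were used for 7 of the 10 genes, with 8 windows in all. Any window on chromosome 18, where Ndst1 lies, was left out, and Ext1 and Extl3 had no window. Among the 8 only the second window of Extl2 held fewer CG dinucleotides than that of Extl1. The motifs searched, on both strands, were CCAAT (the CCAAT box), TATAAA (the TATA box), GGGCGG (a GC box), CACGTG (an E-box) and TGATGNAAT (a core of ATF4 and C/EBP elements). In the Extl1 window CCAAT occurred once, 64 bases before the start, as it did in 37.4% of all windows, and the others did not occur. GGGCGG occurred 7 times in the Hs6st1 window, on either strand, and at least once in 35.7% of all windows. TGATGNAAT occurred in none of the 8 windows and in 0.965% of all windows. These matches describe letters and not bound sites. Because Hnrnpl is known to bind CA repeats, CACACACA was also searched on the sense strand of the longest coding transcript of each gene (GENCODE M21). It was found in Extl3 and Glce and not in Extl1, and 18.3% of 11638 transcripts of tested genes held it; introns were not searched.

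Extl1 lies at chr4:134356373-134372547 on the minus strand (GRCm38) and encodes an EXT-like protein with N-acetylglucosamine transferase activity. Its only annotated coding transcript has 11 exons and 4126 bases, and no other annotated gene overlaps it. Extl1 was measured at 5.39, 5.004 and 4.60 FPKM in cKO replicates 1 to 3 and at 2.10, 2.04 and 1.397 FPKM in control replicates 1 to 3. Each cKO library was thus above each wild type library, and the lowest cKO value was more than 2 FPKM above the highest wild type value. The means were 4.998 ± 0.395 FPKM and 1.84 ± 0.388 FPKM (SD, n = 3), a ratio of 2.71. At the estimated depths these levels stand for about 153, 211 and 221 fragments in the cKO libraries and 119, 110 and 61 in the wild type libraries, if all came from the coding transcript. Scaled by the median-of-ratios factors, Extl1 stood at 4.59, 5.17 and 4.73 in the cKO libraries and at 2.12, 2.07 and 1.47 in the controls, a ratio of 2.56.

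The log2 fold change of Extl1 was 1.08 (SE 0.14) on the log2(FPKM + 1) scale, where changes of low genes come out too small, and 1.02 (SE 0.13) after scaling. This is the value that chose it: in the fit across all genes it was 1 of 6 called higher at an adjusted p under 0.05 (limma, adjusted p = 0.0437, and from 0.0128 to 0.151 over the alternatives). Extl1 was the only one of the 10 genes called, where 0.0482% of all tested genes were called higher and 0.0723% lower. After scaling it was again the only one, where 0.764% were called higher and 0.53% lower. In all 0.121% of tested genes were called before scaling and 1.29% after it. The call ended without cKO replicate 2 (limma adjusted p = 0.151) and without any one of control replicates 1, 2 and 3 (limma adjusted p = 0.148, 0.128 and 0.113), and it held without cKO replicate 1, the library that stands apart (log2 fold change 1.04, adjusted p = 0.0466). The log2 fold change without each library in turn stayed between 0.97 and 1.15.

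**Figure D1:**
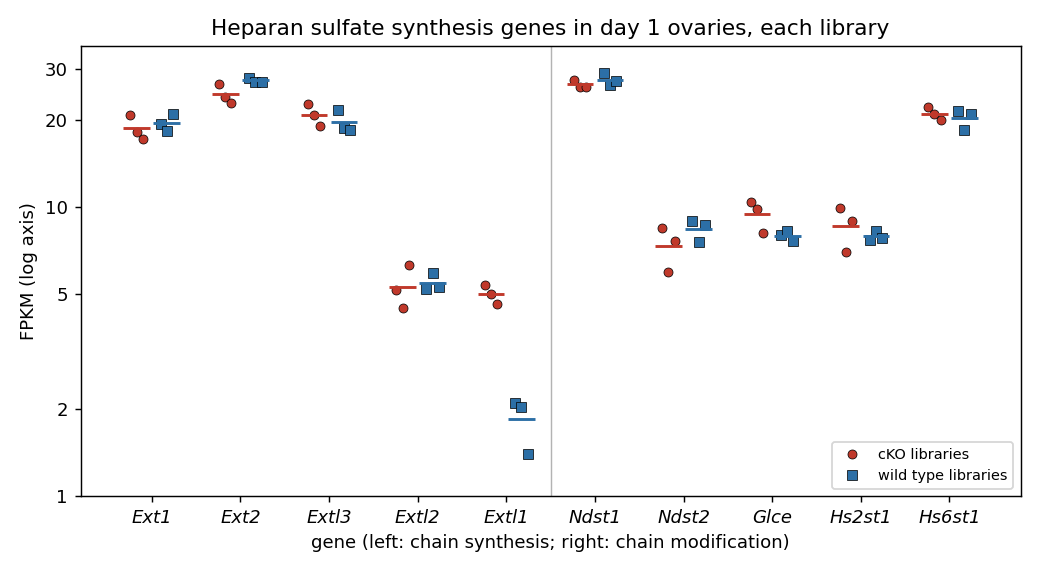
FPKM of the 10 genes in each library on a log axis, with cKO libraries as circles, wild type libraries as squares and short lines at the group means. The cKO libraries of Extl1 sit at 4.60 to 5.39 FPKM and its wild type libraries at 1.397 to 2.10, while in 8 of the other 9 genes the groups overlap.

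Within its family Extl1 had the lowest mean level in both groups, below every Extl2 value in the controls but above Extl2 in cKO replicates 1 and 2. The 5 EXT genes together summed to 70.1 to 80.4 FPKM in cKO ovaries and 72.1 to 76.3 FPKM in the controls, ranges that overlap. Extl1 made up 6.73 ± 0.175% of that sum in the cKO libraries and 2.50 ± 0.507% in the controls (SD, n = 3). This share does not depend on scaling between libraries. It ran from 6.57% to 6.91% in the cKO libraries and from 1.91% to 2.83% in the wild type libraries. In level Extl1 stood at percentile 25.1 of tested genes over all 6 libraries.

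Ext1 and Ext2 encode the subunits of the complex that extends the chain. Ext1, at chr15:53068261-53346183, was measured at 20.7, 18.1 and 17.2 FPKM in cKO ovaries and at 19.4, 18.3 and 20.9 FPKM in the controls. The groups overlapped, with a log2 fold change of -0.06 (SE 0.11), and of -0.15 (SE 0.08) after scaling. Ext2, at chr2:93695631-93822568, stood at 26.6, 24.0 and 23.0 FPKM in cKO ovaries and at 28.0, 27.0 and 27.1 FPKM in the controls. All its cKO libraries were below all wild type libraries, by a small step: the log2 fold change was -0.16 (SE 0.10), and -0.24 (SE 0.07) after scaling. Groups lay apart in this direction in 7.03% of all tested genes, and in 13.0% after scaling. With cKO above they lay apart in 15.5% and 12.6%. Of the 10 genes, Ext2 alone had cKO below and Extl1 alone had cKO above, with either scaling. The ratio of Ext2 to Ext1, a ratio of levels per length within a library, was 1.28 to 1.34 in the cKO libraries and 1.30 to 1.48 in wild type. On the opposite strand the annotated span of Ext2 overlaps Alx4, and the labels do not say whether strand was used in counting.

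Extl3, which encodes the glycosyltransferase that adds the first N-acetylglucosamine and so starts a heparan sulfate chain, lies at chr14:65052059-65149899. It stood at 22.6, 20.8 and 19.0 FPKM in cKO ovaries and at 21.6, 18.8 and 18.4 FPKM in the controls, with overlapping groups. Its log2 fold change was 0.08 (SE 0.11) and turned to -0.00 (SE 0.08) after scaling. Extl2, an EXT-like transferase that can act on the linkage region, lies at chr3:116007449-116029017. It was measured at 5.17, 4.46 and 6.27 FPKM in cKO ovaries and at 5.19, 5.90 and 5.27 FPKM in the controls, and its wild type libraries fell within the range of the cKO libraries. Extl2 and Extl1 differed in wild type, where every Extl2 value was above every Extl1 value, and overlapped in cKO.

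Ndst1 and Ndst2 encode enzymes that replace the acetyl group of N-acetylglucosamine by sulfate, the step on which later modifications build. Ndst1, at chr18:60684494-60749035, had the highest mean of the 10 genes in both groups, with a range that overlapped that of Ext2, at 27.4, 26.1 and 26.0 FPKM in cKO ovaries and 29.0, 26.5 and 27.2 FPKM in the controls. Its span overlaps Rps14, a ribosomal protein gene on the opposite strand, whose reads may be shared with it where counting did not use strand. Ndst2, at chr14:20723730-20734570, stood lower, at 8.48, 5.98 and 7.60 FPKM in cKO ovaries and 8.95, 7.57 and 8.67 FPKM in the controls. The groups overlapped for both genes. Ndst1 exceeded Ndst2 by a factor of 3.23 to 4.36 in the cKO libraries and 3.14 to 3.50 in the wild type libraries.

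Glce, which converts glucuronic to iduronic acid in the chain, lies at chr9:62057244-62122609. It was measured at 10.4, 9.86 and 8.12 FPKM in cKO ovaries and at 7.98, 8.26 and 7.64 FPKM in the controls. Of the 9 genes other than Extl1 it had the largest positive log2 fold change, 0.22 (SE 0.11), and 0.14 (SE 0.09) after scaling, and cKO replicate 3 overlapped the wild type libraries. Hs2st1, which sulfates iduronic acid, lies at chr3:144429701-144570216. It stood at 9.91, 6.99 and 8.93 FPKM in cKO ovaries and at 7.68, 8.25 and 7.82 FPKM in the controls, so the cKO libraries spread over a wider range that held all wild type libraries. Hs6st1, which sulfates glucosamine, lies at chr1:36068400-36106446. It was measured at 22.1, 20.9 and 19.9 FPKM in cKO ovaries and at 21.5, 18.5 and 20.9 FPKM in the controls, and its log2 fold change was 0.05 (SE 0.10), turning to -0.03 (SE 0.09) after scaling.

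**Figure D2:**
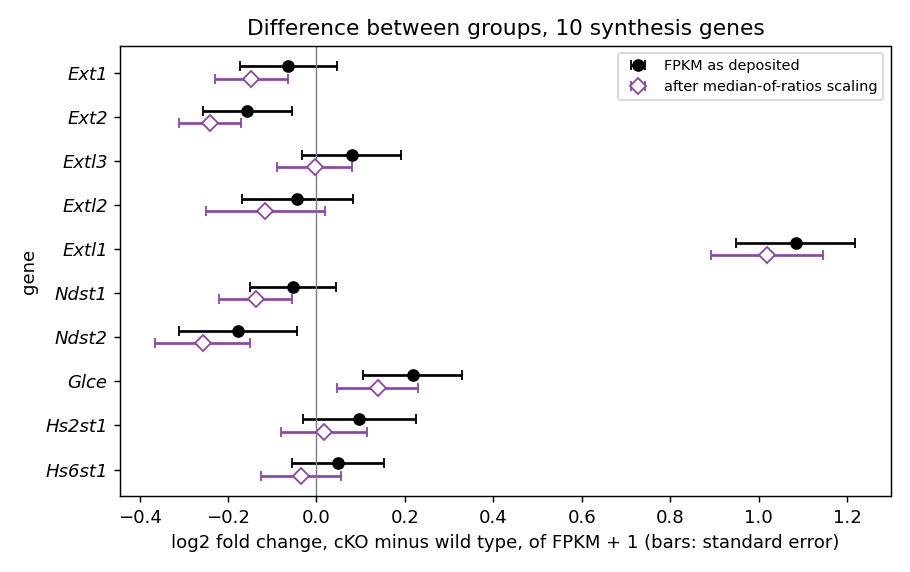
Log2 fold change of each gene, cKO minus wild type, on the log2(FPKM + 1) scale with standard errors, from FPKM as deposited (filled circles) and after median-of-ratios scaling (open diamonds). Extl1 lies at 1.08 and 1.02, and the other 9 genes lie between -0.18 and 0.22 as deposited and between -0.26 and 0.14 after scaling.

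The 9 genes without Extl1 had a median log2 fold change of -0.04, with 4 positive and 5 negative, beside 0.08 over all tested genes. After scaling their median was -0.12, with 2 positive and 7 negative, beside 0.00 over all tested genes. The summed level of these 9 genes was 136.0 to 153.4 FPKM in cKO ovaries and 139.1 to 149.3 FPKM in the controls. Over all 6 libraries their coefficient of variation ran from 4.17% for Ndst1 to 13.8% for Ndst2, and that of Extl1 was 51.5%. The Extl1 value includes the difference between groups that chose it. Within groups it was 7.91% in the cKO libraries and 21.0% in the controls.

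The order of levels was Ndst1, Ext2, Hs6st1, Extl3, Ext1, Ndst2, Glce, Hs2st1, Extl2 and Extl1 in wild type. Ranges of neighbours in that order did not overlap between Ext2 and Hs6st1, Ext1 and Ndst2, Hs2st1 and Extl2, or Extl2 and Extl1, and the other neighbours did not differ beyond their spread. The genes so formed an upper pair at 26.5 to 29.0 FPKM, a trio at 18.3 to 21.6 FPKM, a trio at 7.57 to 8.95 FPKM, and then Extl2 and Extl1. In cKO the first 5 held the same places, Glce, Hs2st1 and Ndst2 followed in that order, and Extl2 and Extl1 came last again. There only Ext2 from Hs6st1 and Ext1 from Glce did not overlap.

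The rest of the pathway was described by lists fixed by role. They hold 56 other genes, of which 55 were in the table and 45 were tested. None of the 45 was called by limma, where 5 had an unadjusted p under 0.05. The share of all tested genes under that threshold was not counted. Counts under it, here and for the lists below, are therefore not read as high or low. After scaling Ndst2 lay under it at rank 2171, so at least 2171 of the 12442 tested genes did. Of the 45, 25 had positive and 20 negative log2 fold changes, with a median of 0.03, and after scaling 15 were positive and 30 negative, with a median of -0.05. Over all 12442 tested genes 8108 were positive and 4334 negative as deposited, and 6226 and 6216 after scaling. Groups lay apart with cKO below in 4 genes (8.89%) and above in 2 (4.44%), beside 7.03% and 15.5% of all tested genes. After scaling these were 12 genes (26.7%) and 2 genes (4.44%), beside 13.0% and 12.6%, and 1 gene, Sulf1, was called lower. Both counts with cKO below include Gpc6, which passed the filter only through the controls.

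Sulf1 and Sulf2 encode the extracellular sulfatases that trim sulfate from finished heparan sulfate chains. Sulf1 was measured at 16.4, 14.1 and 15.3 FPKM in cKO ovaries and at 20.5, 20.2 and 20.9 FPKM in the controls, and all cKO libraries were below all wild type libraries. On the log2 scale it differed by -0.41 (SE 0.10; limma adjusted p = 0.162), and by -0.49 (SE 0.08; limma adjusted p = 0.0289) after scaling. Over all alternatives its limma adjusted p ran from 0.0229 to 0.498. Sulf2 stood at 75.9, 68.2 and 71.4 FPKM in cKO ovaries and at 90.5, 90.1 and 89.2 FPKM in the controls, also without overlap. Its log2 fold change was -0.32 (SE 0.11; limma adjusted p = 0.279), and after scaling -0.41 (SE 0.08; limma adjusted p = 0.0537). The heparanases Hpse and Hpse2, which cut the chains, were below the filter, at no more than 0.718 and 0.453 FPKM in any library.

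Of 14 core proteins that can carry heparan sulfate, 13 were tested and 0 were called in either fit by limma, with 2 and, after scaling, 7 at an unadjusted p under 0.05. Log2 fold changes were positive in 3 and negative in 10, with a median of -0.09, and positive in 1 and negative in 12 after scaling. Hspg2, which encodes perlecan, was measured at 51.9, 51.0 and 53.9 FPKM in cKO ovaries and at 69.5, 62.2 and 63.3 FPKM in the controls. Its groups did not overlap, and its log2 fold change was -0.31 (SE 0.11; limma adjusted p = 0.284). Gpc6, a glypican held at the membrane by a lipid anchor, stood at 0.813, 0.619 and 0.835 FPKM in cKO ovaries and at 1.42, 1.73 and 1.44 FPKM in the controls (limma adjusted p = 0.223), again apart. Its cKO mean was 0.755 FPKM, so it passed the filter of 1 FPKM only through the controls. Its place among the genes with cKO below was favoured by that filter and is not read as a result. Sdc4, a transmembrane syndecan and the most abundant core protein gene, went the other way, at 190.4, 140.0 and 147.2 FPKM in cKO ovaries and 128.4, 123.2 and 123.3 FPKM in the controls (limma adjusted p = 0.385). Tgfbr3, the TGF-beta coreceptor betaglycan, had a log2 fold change of -0.18 (SE 0.12). After scaling 7 of the 13 (53.8%) had all cKO libraries below all wild type libraries, namely Sdc2, Sdc3, Gpc3, Gpc6, Hspg2, Col18a1 and Tgfbr3, beside 13.0% of all tested genes. As deposited there were 2 of 13, beside 7.03% of all tested genes.

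Markers of several somatic cell types stood lower in the same cKO libraries. The summed level of 10 stroma and mesenchyme markers was 963 to 1124 FPKM in cKO ovaries and 1229 to 1276 FPKM in the controls, with 9 of 10 log2 fold changes negative. That of 9 surface epithelium markers was 172.0 to 263.2 and 272.4 to 293.5 FPKM, all 9 negative and 1 called lower. That of 10 endothelial markers was 77.8 to 94.2 and 94.9 to 121.9 FPKM, all 10 negative. For 8 pericyte and smooth muscle markers it was 50.9 to 57.0 and 68.9 to 74.3 FPKM, with all 7 tested members negative. For 6 erythroid markers it was 462.6 to 533.9 and 771.7 to 836.2 FPKM, with 4 of 5 tested members negative and 0 called. The groups overlapped for each of these 5 as deposited, and Hba-a1 alone ran from 69.2 to 433.1 FPKM in the controls. The groups overlapped for germ cell and oocyte markers (180.2 to 323.1 and 171.1 to 191.2 FPKM), for pregranulosa markers (500.0 to 618.3 and 513.5 to 523.1 FPKM) and for macrophage and leukocyte markers (14.3 to 19.0 and 15.1 to 18.9 FPKM). No marker of these lists was at 0 in a library except Aif1, a macrophage gene. Of the 12 germ cell and oocyte markers, 7 were positive and 5 negative, with 1 called lower, and 2 were called higher and 2 lower after scaling. After scaling 2 pregranulosa, 2 stroma, 3 surface epithelium and 1 pericyte marker were called lower. Over all tested genes 0.764% were called higher and 0.53% lower after scaling, and 0.0723% lower as deposited. The pregranulosa list was split as deposited, with 7 of 12 positive and 5 negative. Its groups lay apart with cKO above in 3 and below in 3, beside 15.5% and 7.03% of all tested genes. The part of these markers in the values of Sulf1, Sulf2, Hspg2 and Extl1 was not tested.

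**Figure D3:**
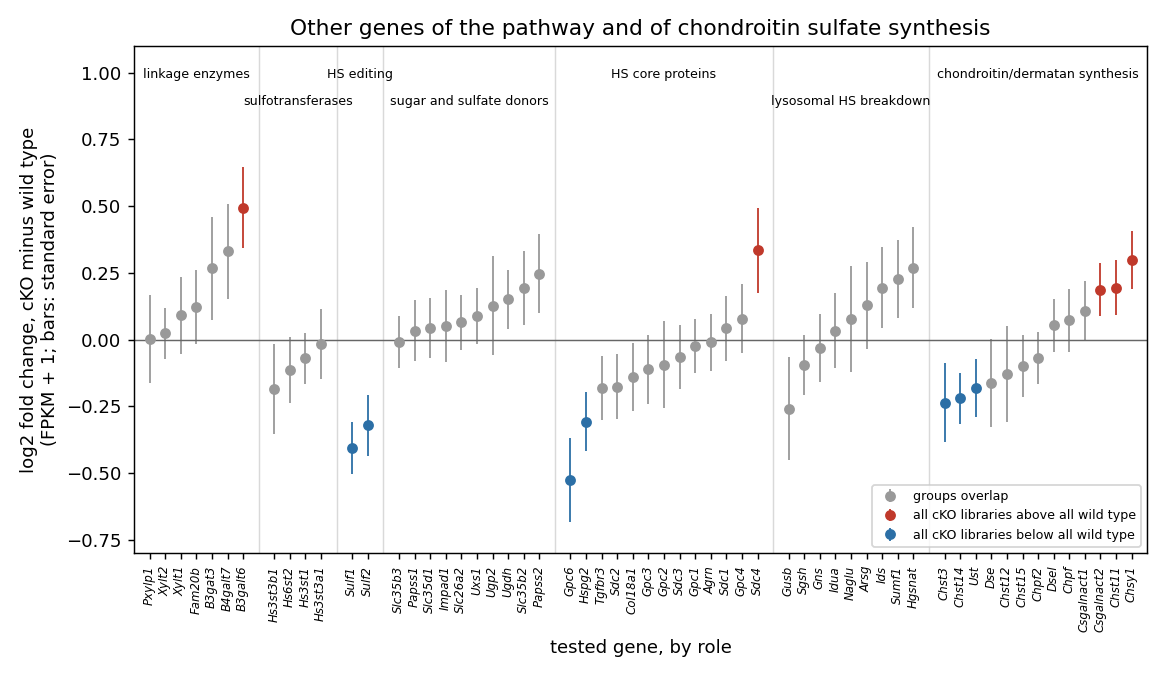
Log2 fold change, cKO minus wild type, of the 45 tested pathway genes outside the 10 synthesis genes and of 13 genes of chondroitin and dermatan sulfate synthesis, grouped by role, with standard errors. Red and blue points have all cKO libraries above or below all wild type libraries; Sulf1 and Sulf2 lie at -0.41 and -0.32, and B3galt6 and Sdc4 at 0.49 and 0.33.

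The linkage sugar on which the chain is built is made by enzymes shared with chondroitin sulfate. All 7 were tested and 0 were called by limma, with 1 at an unadjusted p under 0.05. All 7 log2 fold changes were positive as deposited and 5 of 7 after scaling, with a median of 0.12 and 0.04. Of the 12442 tested genes 8108 were positive as deposited and 6226 after scaling. B3galt6, which adds the second galactose of the linkage, was measured at 4.60, 2.90 and 3.27 FPKM in cKO ovaries and at 2.34, 2.13 and 2.196 FPKM in the controls. Its groups did not overlap, and the log2 fold change was 0.49 (SE 0.15; limma adjusted p = 0.231), or 0.43 (SE 0.12; limma adjusted p = 0.117) after scaling. B4galt7, which adds the first galactose, stood at 4.55 ± 1.11 FPKM in cKO ovaries and 3.40 ± 0.749 FPKM in the controls (SD, n = 3).

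Other sulfotransferases were few. Of 11 listed, 4 passed the filter and 0 were called by limma, with none at an unadjusted p under 0.05 as deposited and 1 after scaling, and all 4 log2 fold changes were negative. Hs3st3b1, a glucosaminyl sulfotransferase and the one with the smallest p, had a log2 fold change of -0.19 (SE 0.17). Hs6st2, a paralog of Hs6st1, stood at 25.9 ± 3.84 FPKM in cKO ovaries and 27.9 ± 0.211 FPKM in the controls, so this ovary held transcripts of both at more than 18 FPKM in each library. Hs3st1, which makes the rare sulfate on which antithrombin binding rests, stood at 11.4 ± 0.928 and 11.96 ± 0.287 FPKM. Ndst3 and Ndst4 were at no more than 0.226 and 0.549 FPKM in any library, and Hs3st2 was listed at 0 in all 6.

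Donor supply was described by 10 tested genes for making and carrying nucleotide sugars and activated sulfate. None was called by limma, as deposited or after scaling, and none had an unadjusted p under 0.05 in either. Slc35b2, the Golgi carrier of the sulfate donor, had a log2 fold change of 0.19 (SE 0.14). Papss2, an enzyme that makes the sulfate donor, stood at 2.90 ± 0.655 FPKM in cKO ovaries and 2.26 ± 0.232 FPKM in the controls, and Ugdh, which makes UDP-glucuronic acid, at 13.3 ± 1.25 and 11.8 ± 0.9996 FPKM (SD, n = 3). The breakdown list held 9 tested genes, 8 lysosomal enzymes that act on heparan sulfate and Sumf1, and 0 were called by limma in either fit, with 0 and, after scaling, 1 at an unadjusted p under 0.05. Sumf1, which activates sulfatases in the endoplasmic reticulum, had a log2 fold change of 0.23 (SE 0.15). Hgsnat, an acetyltransferase of that route, stood at 12.4 ± 2.82 FPKM in cKO ovaries and 9.995 ± 0.737 FPKM in the controls, and Gusb, beta-glucuronidase, at 10.4 ± 3.34 and 12.2 ± 0.584 FPKM.

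Chondroitin and dermatan sulfate synthesis draws on the same linkage sugar and the same donors. Of 16 genes listed, 13 were tested and 0 were called by limma in either fit, with 2 and, after scaling, 3 at an unadjusted p under 0.05. Chsy1, a chondroitin polymerase, was measured at 26.2, 21.6 and 22.3 FPKM in cKO ovaries and at 19.7, 18.6 and 17.99 FPKM in the controls, without overlap (log2 fold change 0.30, SE 0.11; limma adjusted p = 0.293). Chst14, a dermatan sulfotransferase, stood at 6.34 ± 0.123 and 7.57 ± 0.615 FPKM (SD, n = 3), with cKO below. In the whole list groups lay apart with cKO above in 3 of 13 genes and below in 3, beside 15.5% and 7.03% of all tested genes. After scaling these were 1 and 4 genes, beside 12.6% and 13.0%.

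Around Extl1, RefSeq lists 26 other genes within 250 kb on chromosome 4. With predicted loci left out, 13 tested genes of this window were described. None was called by limma, as deposited (smallest adjusted p = 0.256) or after scaling (0.176), and their log2 fold changes ran from -0.12 to 0.35 with a median of 0.14. Slc30a2, a zinc transporter 1.9 kb away, stood at 3.33, 3.29 and 2.53 FPKM in cKO ovaries and at 2.76, 1.98 and 2.37 FPKM in the controls, with overlapping groups. Pafah2, a phospholipase 23.8 kb away on the other side, stood at 2.26 ± 0.332 and 1.97 ± 0.467 FPKM (SD, n = 3). Cep85, a centrosomal protein gene, had the largest value of the 13, at 0.35 (SE 0.12), and its groups did not overlap. The others were Sh3bgrl3, Zfp593, Grrp1, Pdik1l, Stmn1, Paqr7, Aunip, Mtfr1l, Selenon and Man1c1, of which Mtfr1l and Man1c1 also had all cKO libraries above all controls. Groups lay apart with cKO above in 15.5% of all tested genes, and in 12.6% after scaling. After scaling Cep85, Mtfr1l and Man1c1 stayed apart, and Selenon had cKO below, as did 13.0% of all tested genes. Of the 13 neighbours 11 were positive, and 8 after scaling, beside 8108 and 6226 of 12442 tested genes.

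**Figure D4:**
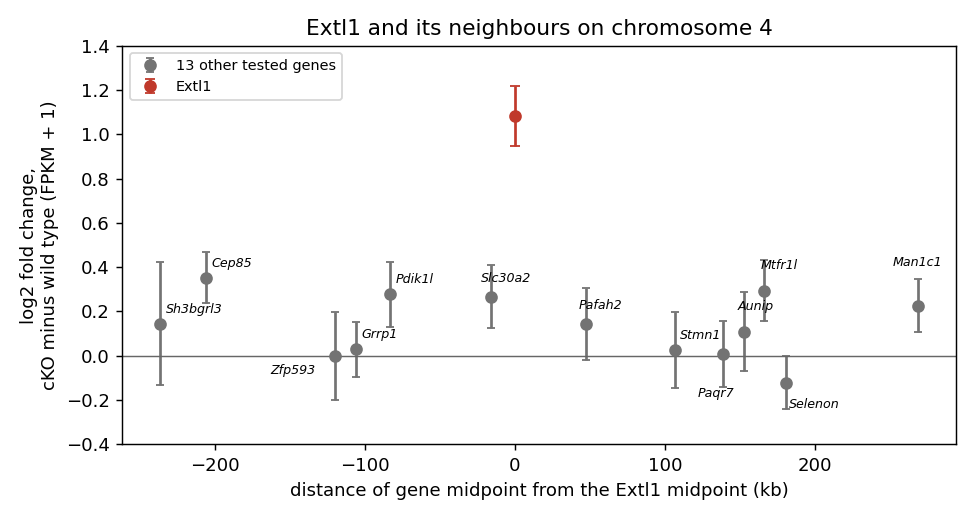
Log2 fold change (cKO minus wild type, with standard errors) is set against the distance between gene midpoints. Extl1 is red, and the 13 other tested genes within 250 kb, without predicted loci, are grey. Extl1 lies at 1.08 and its neighbours between -0.12 and 0.35.

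Predicted loci, with symbols such as Gm or Rik names, were left out of the search for genes like Extl1. Of the rest, those whose log2(FPKM + 1) followed Extl1 most closely over the 6 libraries were Tmem114 (Pearson's r = 0.997), Uhrf1bp1 (0.996), Crybg3 (0.996), Shtn1 (0.995) and Mthfd2 (0.994). The points share 6 libraries in 2 groups, and 455 of 12441 other genes had r of at least 0.9. After scaling r was 0.987 for Mthfd2, 0.983 for Tmem114, 0.961 for Crybg3, 0.954 for Shtn1 and 0.913 for Uhrf1bp1. Their ranks among all tested genes, predicted loci included, were then 12, 15, 70, 95 and 282, so none stayed among the 10 closest. Mthfd2, a mitochondrial folate enzyme, stood at 7.63, 5.55 and 5.06 FPKM in cKO ovaries and at 1.62, 1.77 and 0.860 FPKM in the controls. In Mthfd2 as in Extl1, wild type replicate 3 was the lowest of the 6 libraries and cKO replicate 1 the highest in FPKM as deposited. After scaling cKO replicate 1 was the lowest of the 3 cKO libraries for Extl1, and cKO replicate 2 the highest. Among the other synthesis genes Glce had the highest r with Extl1, 0.81, and Ext2 the lowest, -0.69, which were 0.71 and -0.91 after scaling.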

How the data were processed

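RNA of 6 ovary libraries was measured, 3 cKO and 3 wild type. The authors deposited 1 table of FPKM values; per the submitters' processing notes mm10, STAR 2.7.11a, HISAT2 2.2.1 and featureCounts 2.0.6 were used, without stated roles, and the program that gave FPKM and the annotation release are not given in the sources used here. Each column name matched 1 sample title. Comparisons used log2(FPKM + 1) of genes averaging 1 FPKM or more, in limma's two-sided moderated test (version 3.58.1, R 4.3.3) with its trend option and Benjamini-Hochberg adjustment over all 12442 genes. The steps were tested on simulated data. Depth was estimated from the smallest FPKM steps in genes with 1 transcript of at least 1500 bases, assuming 200 base fragments. Multiples of a depth fit nearly alike, so the smallest depth with a score near the best was taken. In each library a larger depth scored higher, with 0.754 against 0.685 in cKO replicate 1. At the steps used, 67.7% to 75.6% of low values lay within 0.1 of a whole number, so raw reads were not recovered.

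The genes and lists were chosen with earlier results of these data known. Named are Hnrnpl, the 10 synthesis genes, 2 to 4 tested genes of each pathway list with the smallest p, the 5 genes most like Extl1 and tested neighbours within 250 kb; Hpse, Hpse2, Ndst3, Ndst4, Hs3st2 and the core proteins without overlap were added to say what was low or apart. Predicted loci, with symbols such as Gm or Rik names, were left out of the genes most like Extl1 and of the neighbours. Positions are from RefSeq (GRCm38.p6), transcripts from GENCODE M21. Alternatives were another pseudocount, filters, scalings, weights per library, a fit without trend, a block for replicate number and omission of single libraries.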

Additional observations from a re-analysis of the deposited data

How the results depend on the processing

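The 15 genes called became 34 with a pseudocount of 0.1 FPKM, 5 with no filter, 23 with the filter raised to 5 FPKM, 161 with median-of-ratios scaling, 236 with quantile normalization, 149 with TPM rescaling, 5 with no intensity trend and 172 with library weights. Leaving out single libraries gave 2 to 89 calls: omitting cKO replicate 1, 2 or 3 gave 89, 4 and 74, and omitting control replicate 1, 2 or 3 gave 2, 2 and 6. Of the 10 synthesis genes 1 was called, Extl1, and 0 with no filter, with no intensity trend and with the filter at 5 FPKM, where Extl1 was not tested; leaving out single libraries gave 0 to 1. Of the other pathway genes 0 were called, and 1, Sulf1, with median-of-ratios scaling, quantile normalization, TPM rescaling and library weights. With the replicate block 2 genes were called in all and 0 of the 10. Same-numbered libraries' deviations from their group means had correlations of -0.011, 0.039 and 0.068, and not every library correlated best with its own number, so the numbers were not taken to pair libraries.

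Extl1 kept its direction in all 14 alternatives that tested it and its call in 7. Small log2 fold changes turned when single libraries were left out, over ranges of -0.152 to 0.0554 for Extl2 (0.0554 without cKO replicate 2, 0.00643 without wild type replicate 2), -0.000763 to 0.223 for Hs2st1 (turning without cKO replicate 1) and -0.0142 to 0.0907 for Hs6st1 (turning without wild type replicate 2). With median-of-ratios scaling Extl3 turned to -0.00438 and Hs6st1 to -0.0348, with quantile normalization to -0.023 and -0.0542, and with TPM rescaling to -0.123 and -0.155, where Hs2st1 turned to -0.0982. The cause was not tested. Ext1, Ext2, Ndst1, Ndst2 and Glce kept their direction in all 15 alternatives.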
